A study of Rattus norvegicus with 8 samples.

Results

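The 10 genes described here encode NF-kB subunits and regulators of NF-kB, among them inhibitors that NF-kB switches on to restrain itself. They were picked by symbol from the deposited expression table, in which all 10 were found among 18090 genes; the rule used no measured value, though earlier results of these data were known when the set was drawn up. RNA came from the abdominal aorta of wild-type rats (Rattus norvegicus). In 4 samples a paper soaked in 10% iron chloride (FeCl3) was applied around the vessel for 5 min, which injures the wall and provokes a thrombus, and in 4 controls 0.9% saline was applied the same way. The libraries of each condition are stated to be biologically independent, and the p-values below measure the spread between them. The sources used here do not give strain, age, sex, the time of harvest or whether the clot was kept with the vessel.

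NF-kB is a family of dimeric transcription factors built from Rela, Rel, Relb and the products of Nfkb1 and Nfkb2. In a resting cell, inhibitor proteins of the IkB family hold the dimers in the cytoplasm; cytokine, Toll-like and TNF-family receptors activate the IkB kinase, IkB is degraded, and the dimers enter the nucleus and bind kappaB sites. Among the genes they switch on are their own inhibitors, so that the transcripts of Nfkbia, Tnfaip3 and Zc3h12a are commonly read as a sign of recent NF-kB activity. In the vessel wall, smooth muscle, endothelial cells and infiltrating leukocytes all use this pathway.

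The kappaB consensus was searched in RefSeq promoter windows of assembly GRCr8, from 250 bases before to 50 bases after each gene's start. The consensus has 10 letters, namely 3 guanines, a purine, any 2 bases, 2 pyrimidines and 2 cytosines. Both strands were searched, and overlapping matches were counted as 1 site. Windows were listed for 8 of the 10 members, all but Relb and Birc3, and 7 of the 8 held a match. Of all 33469 promoter windows 7.51% held one, and of the 10820 windows of genes tested here 9.99% did. More than 1 site was found for Rel (2 sites) and Tnfaip3 (3 sites), against 0.457% of all windows. The windows of Zc3h12a and of Rela held none of these letters, and the match of Nfkb1 lay 3 bases past the start. The choice read no promoter sequence, but the set holds inhibitors that NF-kB switches on. The share of windows with a match is therefore not independent of the choice. The stretches around the upstream matches of 6 members are shown. They run 5′ to 3′ on the gene's strand, with the kappaB match in capitals.
Nfkbia, chr6:78597074-78597123, minus strand: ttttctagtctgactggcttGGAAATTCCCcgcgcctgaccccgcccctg
Nfkbiz, chr11:58251688-58251720, plus strand: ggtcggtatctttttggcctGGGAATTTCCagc
Bcl3, chr1:88613564-88613613, minus strand: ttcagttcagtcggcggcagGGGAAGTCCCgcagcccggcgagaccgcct
Nfkb2, chr1:255108334-255108373, plus strand: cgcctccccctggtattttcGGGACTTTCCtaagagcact
Rel, chr14:101921991-101922040, minus strand: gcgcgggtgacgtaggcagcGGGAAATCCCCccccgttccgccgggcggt
Tnfaip3, chr1:15544017-15544066, minus strand: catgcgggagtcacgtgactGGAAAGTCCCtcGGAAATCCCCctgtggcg
Of these, the matches of Nfkbia, Nfkbiz, Bcl3 and Nfkb2 began 31, 13, 38 and 20 bases before the start. In Rel 2 overlapping matches are capitalised, and in Tnfaip3 the pair began 67 and 55 bases before the start. A match describes the letters only, and binding was not measured.

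Expression is given as FPKM, fragments divided by the length of the gene and the size of the library, so levels of different genes can be compared per length. Library totals were 24304434 to 30283292 fragments. Haemoglobin genes took 16.4% to 34.1% of the fragments after FeCl3, against 1.3% to 1.63% in saline replicates 1 to 3 and 16.5% in saline replicate 4, and this share lowers the FPKM of every other gene. All 8 smooth muscle markers were detected in every library, which fits the labelled tissue. The 8 pan-leukocyte markers summed to 314 to 1038 FPKM after FeCl3, and to 13.9, 68.3, 50.9 and 435 FPKM in saline replicates 1 to 4. Saline replicate 4 therefore stood apart from the other controls in its blood and leukocyte transcripts. Medians without it are given for the members and for each list of pathway genes.

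None of the 10 members passed the test between FeCl3 and saline aorta. The test was limma on log2(FPKM + 1), two-sided, with Benjamini-Hochberg adjustment over the 11921 genes that reached 1 FPKM in at least 4 libraries, and all 10 members were among them. Of all tested genes 0 passed at an adjusted p under 0.05 (0%), also with limma voom on recovered fragments, while 1981 (16.6%) had an unadjusted p under 0.05. Of the members 1 did so, Zc3h12a, which encodes the ribonuclease regnase and was lower after FeCl3, where 12.2% of tested genes were lower at that level. The members' log2 fold changes had a median of -0.13, with 3 positive and 7 negative, beside a median of -0.25 over all tested genes, of which 70.2% were negative. FeCl3 and saline values failed to overlap for 1 member, Nfkb2, which was lower after FeCl3, against 8.75% of tested genes lower in this way. No member was apart in the other direction (1.06% of tested genes). Without saline replicate 4, 160 genes passed (1.34% of those tested), but 0 members did, and the members' median was -0.09 with 3 positive. The members whose log2 fold change moved most without that library were Nfkbia (from -0.02 to -0.16), Zc3h12a (from -0.67 to -0.78) and Bcl3 (from -0.18 to -0.07), followed by Rel (from -0.20 to -0.11). In whole tissue such as this, fewer cells of a type and less RNA per cell cannot be told apart.

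**Figure D1:**
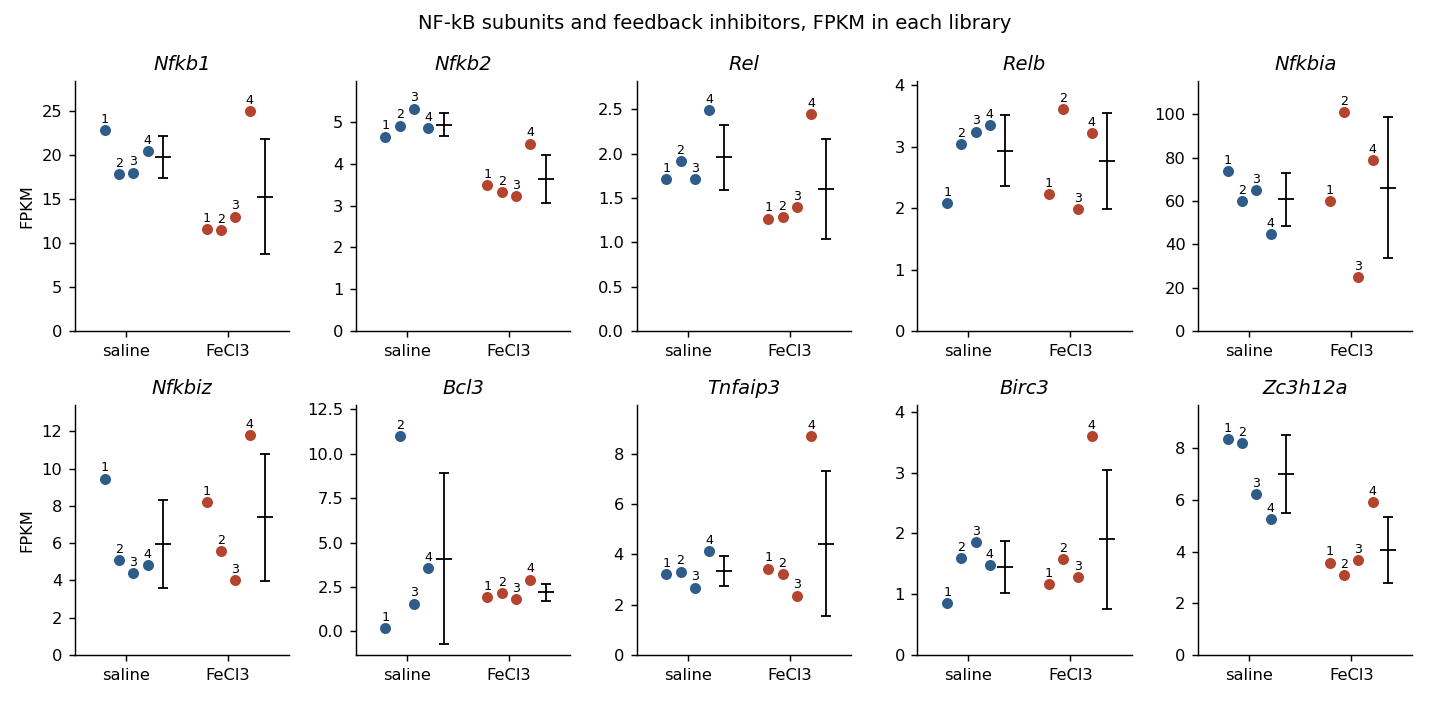
FPKM of the 10 members in each of 8 libraries, with saline in blue and FeCl3 in red and the replicate number above each point; horizontal bars and whiskers are the mean and SD (n = 4), and each panel has its own vertical axis. The groups overlap for all members other than Nfkb2, and FeCl3 replicate 4 is the highest FeCl3 library for 8 of the 10.

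All 4 subunit genes of the set had lower means after FeCl3, where 70.2% of all tested genes had negative log2 fold changes. For all but Nfkb2 the groups overlapped. Nfkb1 encodes the precursor that is processed to the p50 subunit. It stood at 11.6, 11.5, 13 and 25 FPKM in FeCl3 replicates 1 to 4 and at 22.8, 17.8, 18 and 20.4 FPKM in saline replicates 1 to 4. Of the FeCl3 libraries 3 lay below every control and replicate 4 lay above every control. Its log2 fold change was -0.42 ± 0.27 (SE; limma adjusted p = 0.45), and without FeCl3 replicate 4 it was -0.67 (limma adjusted p = 0.246).

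Nfkb2 encodes the precursor of the p52 subunit, the end point of the non-canonical pathway. Its values were 3.49, 3.32, 3.23 and 4.48 FPKM after FeCl3 and 4.65, 4.91, 5.32 and 4.86 FPKM after saline. All 4 FeCl3 libraries lay below all 4 controls, by a small margin for replicate 4. On the log2 scale the difference, FeCl3 minus saline, was -0.36 ± 0.19 (SE; 95% interval -0.79 to 0.06; limma adjusted p = 0.347). This separation was lost under median-of-ratios scaling. The FeCl3 values became 3.42, 3.58, 4.36 and 4.44 and the saline values 5.9, 4.03, 4.29 and 4.25. Under that scaling 3.46% of tested genes were apart and lower after FeCl3, and no member was. It was also lost when haemoglobin genes were left out of the library totals.

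Rel, the c-Rel subunit of lymphoid and myeloid cells, was the lowest subunit gene. It measured 1.27, 1.29, 1.4 and 2.45 FPKM after FeCl3 and 1.71, 1.92, 1.71 and 2.49 FPKM after saline. Replicate 4 was the highest library of both groups. The groups differed by -0.20 ± 0.22 on the log2 scale (SE; limma adjusted p = 0.659). Relb, the partner of p52, measured 2.23, 3.62, 1.99 and 3.22 FPKM after FeCl3 and 2.09, 3.05, 3.25 and 3.35 FPKM after saline. Its groups covered nearly the same range, with a log2 difference of -0.07 ± 0.23 (SE; 95% interval -0.60 to 0.45; limma adjusted p = 0.886), and the sign turned under median-of-ratios scaling (0.10).

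Rela, the main activating subunit and no member of the set, gave the scale for these levels. It measured 19.1, 12.9, 11.7 and 17.1 FPKM after FeCl3 and 27.8, 18.4, 26.1 and 20.4 FPKM after saline. Only FeCl3 replicate 1 reached the range of the controls. This gave a log2 fold change of -0.59 ± 0.24 (SE), with an unadjusted p of 0.0366 and a limma adjusted p of 0.28. The FPKM of Nfkb1 was 3.33 to 5.59 times that of Nfkb2 after FeCl3 and 3.38 to 4.89 times after saline, so this ratio covered a similar span in both groups. Rela exceeded Rel 6.96 to 15 times after FeCl3 and 8.19 to 16.3 times after saline.

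Among the members that encode IkB proteins, Nfkbia encodes IkB-alpha, the inhibitor that is resynthesised first and ends a response. It was the most abundant member in every library. Its values were 60, 101, 24.8 and 79 FPKM after FeCl3 and 73.8, 60, 64.9 and 44.7 FPKM after saline. The highest and the lowest library were both FeCl3 libraries, replicates 2 and 3, which differed 4.07 times, and the controls lay between them. Between groups the log2 difference was -0.02 ± 0.42 (SE; 95% interval -0.97 to 0.92; limma adjusted p = 0.98). It was 0.38 without FeCl3 replicate 3 and -0.28 without FeCl3 replicate 2, so the sign of this gene's difference rested on single libraries. The interval spans changes of nearly a log2 unit in both directions, and the data do not show that the groups are alike.

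Nfkbiz encodes IkB-zeta, a nuclear IkB protein that helps NF-kB to induce a later wave of genes. It measured 8.2, 5.58, 4 and 11.8 FPKM after FeCl3 and 9.47, 5.1, 4.39 and 4.81 FPKM after saline. Saline replicate 1 was well above the other controls, and FeCl3 replicates 1 and 4 above the other FeCl3 libraries. Its log2 difference was 0.24 ± 0.35 (SE; limma adjusted p = 0.74), and 0.01 without FeCl3 replicate 4.

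Bcl3, a nuclear IkB protein that binds p50 and p52 homodimers, varied most. It measured 1.94, 2.14, 1.81 and 2.91 FPKM after FeCl3 and 0.192, 11, 1.57 and 3.57 FPKM after saline. The FeCl3 libraries were close together, and the controls differed 57.4 times between replicates 2 and 1. These ends rested on 507 and 11 recovered fragments. Their exact 95% binomial intervals, 10.1 to 12 FPKM and 0.0959 to 0.344 FPKM, cover counting error only. These 2 controls also stood apart in other genes, named after their values were seen. The 6 adipocyte markers summed to 1.8 FPKM in saline replicate 1, the lowest of all libraries, and to 14238 FPKM in saline replicate 2, of which the brown fat gene Ucp1 made 6272 FPKM. Adipoq and Fabp4 were higher in FeCl3 replicates 1 and 2 than in saline replicate 2. Among the stress genes, the heat shock gene Hspb1 was 10156 FPKM in saline replicate 1 against 168 to 291 FPKM elsewhere, while the immediate early gene Fos was lowest there of the controls, at 63.5 FPKM. The part of any of these in the Bcl3 values was not tested. The log2 fold change of Bcl3 was -0.18 ± 0.61 (SE; limma adjusted p = 0.892), at -0.72 when saline replicate 1 was left out and 0.40 when saline replicate 2 was.

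The remaining members act upstream of the IkB kinase or on messenger RNA. Tnfaip3 encodes A20, the ubiquitin-editing enzyme that shuts down signalling from TNF and Toll-like receptors. It measured 3.43, 3.21, 2.36 and 8.69 FPKM after FeCl3 and 3.21, 3.31, 2.68 and 4.12 FPKM after saline. The FeCl3 libraries other than replicate 4 lay within or just below the range of the controls, and replicate 4 lay above it. Between groups the log2 difference was 0.21 ± 0.34 (SE; limma adjusted p = 0.766), and -0.12 without FeCl3 replicate 4. Birc3 encodes cIAP2, a ubiquitin ligase at TNF receptors that also restrains the non-canonical kinase. Its values were 1.16, 1.57, 1.28 and 3.6 FPKM after FeCl3 and 0.852, 1.59, 1.86 and 1.48 FPKM after saline. Here too FeCl3 replicate 4 alone exceeded the controls. A log2 difference of 0.19 ± 0.29 (SE; limma adjusted p = 0.746) became -0.05 without that library.

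Zc3h12a, whose product degrades inflammatory messenger RNAs such as that of Il6, showed the largest fold change of the 10. It measured 3.58, 3.1, 3.66 and 5.93 FPKM after FeCl3 and 8.36, 8.2, 6.22 and 5.27 FPKM after saline. FeCl3 replicates 1 to 3 lay below every control, and FeCl3 replicate 4 lay above saline replicate 4. The means were 4.07 ± 1.26 FPKM and 7.01 ± 1.52 FPKM (SD, n = 4 each), for a log2 fold change of -0.67 ± 0.25 (SE; 95% interval -1.23 to -0.11). The unadjusted p was 0.0246 and the limma adjusted p 0.26. These 2 libraries made the only overlap, so dropping either had to set the groups apart. Dropping the FeCl3 library put 1990 of 11921 tested genes apart and lower after FeCl3, and dropping the saline library put 1481 there. The log2 fold change of Zc3h12a became -0.83 with the FeCl3 library dropped and -0.78 with the saline library dropped. It was also negative under the 3 other scalings tried, at -0.48 with median-of-ratios scaling, -0.42 with haemoglobin genes left out of the totals and -1.37 with FPKM rescaled to TPM. Adding haemoglobin as a covariate gave -0.29 (limma adjusted p = 1). The log2 haemoglobin level was 18.11 to 19.22 after FeCl3 and 14.78, 14.46, 14.65 and 18.11 in saline replicates 1 to 4. That fit could therefore barely tell haemoglobin from group.

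Scaling set the sign of several members. With FPKM rescaled to TPM, all 10 were negative with a median of -0.72, beside -0.89 for all tested genes, and Nfkb1 (-1.14, limma adjusted p = 0.0488), Nfkb2 (-1.03, limma adjusted p = 0.0448) and Zc3h12a (-1.37, limma adjusted p = 0.0435) passed the threshold. Under that scaling 22.5% of all tested genes passed as lower, so the 3 of 10 lay close to the background. With median-of-ratios scaling 6 members were positive and the median was 0.07, beside -0.05 for all tested genes. With haemoglobin genes left out of the totals 6 were again positive, with a median of 0.10 beside 0.01.

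**Figure D2:**
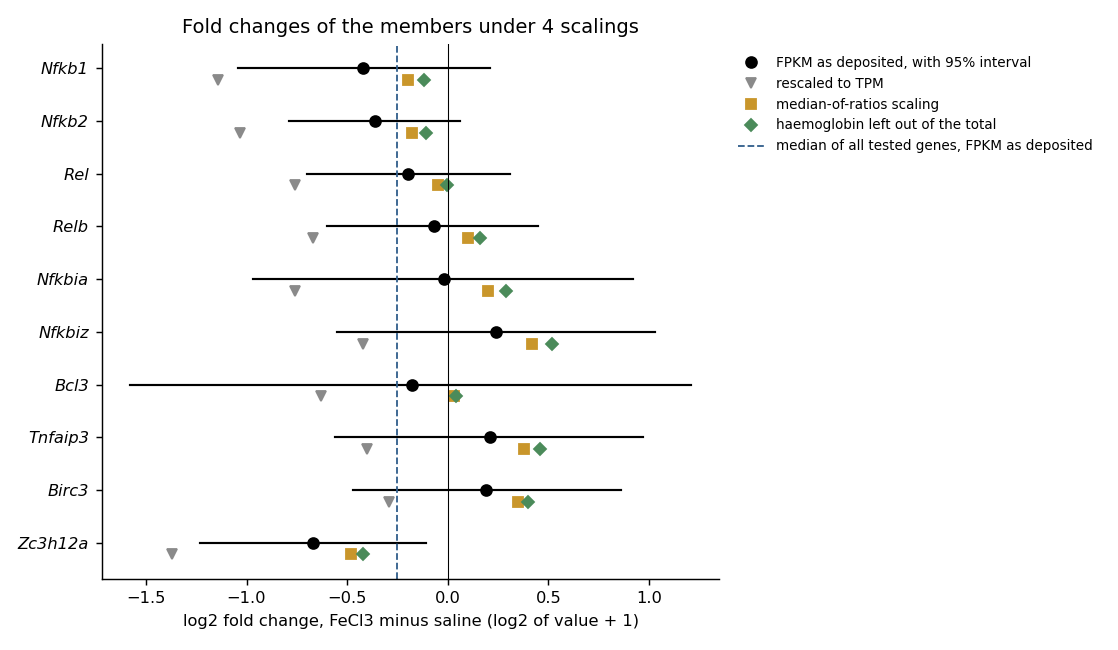
Log2 fold change of each member, FeCl3 minus saline, on the log2(value + 1) scale; black points with lines are the FPKM as deposited with 95% intervals, other symbols are other scalings, and the dashed line is the median of all tested genes (-0.25). All intervals other than that of Zc3h12a span 0, and TPM values lie to the left of the others for every member.

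By mean FPKM, the saline order was Nfkbia (60.9 ± 12.2, SD, n = 4), Nfkb1 (19.7 ± 2.33), Zc3h12a, Nfkbiz, Nfkb2, Bcl3, Tnfaip3, Relb, Rel and Birc3 (1.45 ± 0.426). Only the first 2 steps of this order, from Nfkbia to Nfkb1 and from Nfkb1 to Zc3h12a, separated neighbours whose ranges did not overlap. After FeCl3 the order was Nfkbia (66.2 ± 32.3), Nfkb1 (15.3 ± 6.54), Nfkbiz, Tnfaip3, Zc3h12a, Nfkb2, Relb, Bcl3, Birc3 and Rel (1.6 ± 0.57), and the ranges of all neighbours overlapped. The inhibitor transcript Nfkbia exceeded the A20 transcript Tnfaip3 in all libraries, 9.1 to 31.4 times after FeCl3 and 10.9 to 24.2 times after saline. The 10 members rested on 11 to 4328 recovered fragments per library.

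A level relative to Rela in the same library depends little on the share of haemoglobin. For members at a few FPKM it depends more, because the 1 added before the log2 does not cancel. Each difference of log2(FPKM + 1) was compared by an exact two-sided permutation test, for which 4 against 4 cannot give a p under 0.0286, with adjustment over the 10 members. The mean was higher after FeCl3 for 9 of 10 members, but Rela was itself low after FeCl3, and 79.5% of all other tested genes were higher relative to it. Nfkbiz was the only member whose groups did not overlap. Relative to Rela it stood at -1.13, -1.08, -1.34 and -0.50 after FeCl3 and at -1.46, -1.67, -2.33 and -1.88 after saline. The difference was 0.82 (exact permutation p = 0.0286, adjusted p = 0.286), and 6.44% of tested genes were apart and higher in this measure. Tnfaip3 (0.79) and Birc3 (0.78) followed, each with an exact permutation p of 0.0857 and an adjusted p of 0.286. For Nfkbia the difference was 0.56 (exact permutation p = 0.286), and its FPKM was 2.12 to 7.83 times that of Rela after FeCl3 and 2.19 to 3.26 times after saline. Differences for Nfkb1, Nfkb2, Rel and Relb were 0.17, 0.22, 0.39 and 0.51, with exact permutation p from 0.143 to 0.571. Zc3h12a, at -0.09 (exact permutation p = 0.8), was the only member below 0, and both it and Rela had lower mean FPKM after FeCl3.

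**Figure D3:**
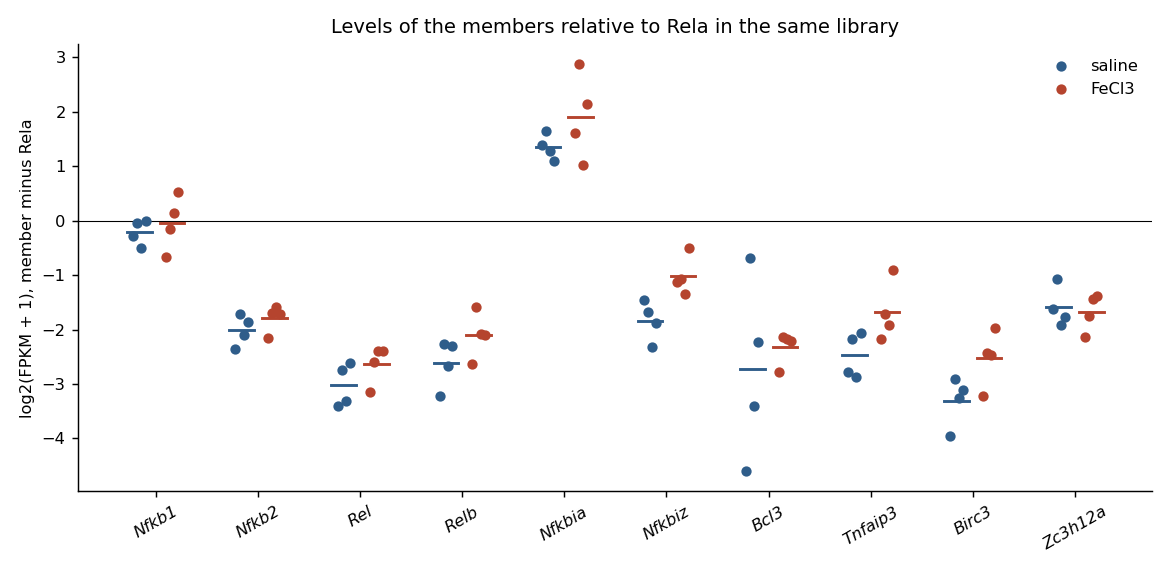
Difference of log2(FPKM + 1) between each member and Rela in the same library, with saline in blue and FeCl3 in red and a line at each mean (n = 4). Nfkbiz is the only gene whose FeCl3 points all lie above its saline points, and Bcl3 has the widest spread among saline libraries.

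FeCl3 replicate 4 was the highest FeCl3 library for 8 members under each of 3 scalings (FPKM, median-of-ratios and haemoglobin left out), the exceptions being Relb and Nfkbia, which were highest in replicate 2. As deposited, FeCl3 replicate 3 was the lowest FeCl3 library for 6 members, but under either of the other scalings for 3. Without FeCl3 replicate 4, groups were apart with FeCl3 lower for 4 members, Nfkb1, Nfkb2, Rel and Zc3h12a, where 16.7% of all tested genes were so. Of the 8 pan-leukocyte markers 7 were also highest of all libraries in this one, the exception being Cd52, which was 310, 127, 437 and 124 FPKM after FeCl3 and thus lowest there of the FeCl3 group. Ptprc, the leukocyte antigen CD45, was 27.7, 15.3, 26 and 129 FPKM after FeCl3 and 0.293, 4.85, 3.02 and 33.3 FPKM after saline. The T cell marker Cd3g was 18.6, 9.87, 17 and 134 FPKM after FeCl3, and Cd3e, Cd3d, Cd2 and Lck were likewise highest in replicate 4. The B cell markers Cd79a, Cd79b and Ms4a1 were instead highest in replicate 3, with Cd79a at 42.3 FPKM there and 39.6 FPKM in replicate 4. The 8 T and B cell markers reported summed to 47.1 to 422 FPKM after FeCl3 and to 0.318 to 81.2 FPKM in the controls, where Cd3e, Cd3d, Cd2, Cd79a and Ms4a1 were each listed at 0 in at least 1 library. Myeloid markers did not follow this order: their sum in replicate 4 was 328 FPKM, within the 258 to 721 FPKM of the FeCl3 group, against 3.81 to 531 FPKM in saline. All 8 pan-leukocyte markers had positive log2 fold changes, 8 at an unadjusted p under 0.05, where 4.42% of tested genes were higher at that level. With a limma adjusted p under 0.05 there were 0. Without saline replicate 4, 4 of them passed, where 150 of 11921 tested genes passed as higher. That library was set apart by these same markers, so the 4 are not independent of leaving it out.

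Summed over the list, pan-leukocyte markers ranged from 13.9 to 1038 FPKM over the 8 libraries, and the members from 57.5 to 147 FPKM, a sum to which Nfkbia contributed most. With the mean log2 level of the pan-leukocyte markers as a covariate, the log2 fold changes of Tnfaip3 and Birc3 were -0.28 and -0.20 (limma adjusted p = 0.877 and 0.898), and that of Nfkbia was 0.34 (limma adjusted p = 0.887). The same fit gave -1.26 for Bcl3, -0.54 for Rel and -0.30 for Relb (limma adjusted p = 0.72, 0.72 and 0.802). Smooth muscle markers were lower on average after FeCl3, with 8 of 8 negative, a median log2 fold change of -0.98 and sums of 3843 to 11036 FPKM against 5047 to 27287 FPKM. The mean log2 pan-leukocyte level was 4.83 to 6.81 after FeCl3 and 0.85, 2.96, 2.53 and 5.36 in saline replicates 1 to 4. Of the controls only saline replicate 4 reached the FeCl3 range, so the covariate fit could barely tell that level from group. No fit used the smooth muscle markers, and the part of either cell type in the members' values was not tested.

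**Figure D4:**
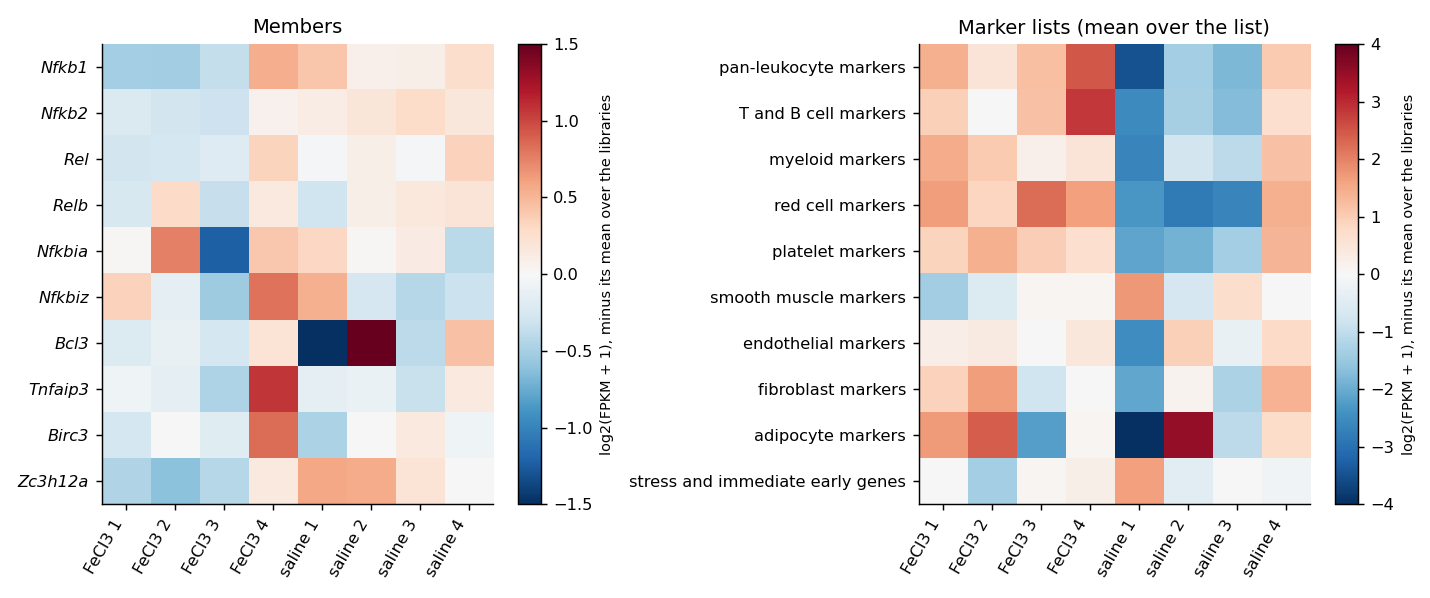
Levels of the members (left) and mean levels of the marker lists (right) in each library, as log2(FPKM + 1) minus the mean over the 8 libraries; colours stop at the ends of each scale, and the scale differs between panels. FeCl3 replicate 4 is high for most members, for pan-leukocyte markers and for the combined T and B cell markers. Bcl3 is lowest in saline replicate 1 and highest in saline replicate 2.

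Other genes of the pathway were taken from lists by role. Upstream, 12 of 17 ligands and receptors were tested, with 8 positive, 4 negative and a median log2 fold change of 0.66. None passed, and 3, all higher, had an unadjusted p under 0.05, where 4.42% of tested genes were higher at that level: Il1b, Cd40lg and Ltb, named after their values were seen. Il1b, an inflammatory cytokine, was 20.1, 10.7, 11 and 9.64 FPKM after FeCl3 and 0.201, 2.91, 1.57 and 13.1 FPKM after saline, so that saline replicate 4 fell inside the FeCl3 range. Cd40lg, a T cell ligand of Cd40, was 3.7, 0.979, 2.58 and 27.6 FPKM after FeCl3 and 0, 0.368, 0.0425 and 2.07 FPKM after saline. Ltb, a lymphotoxin subunit, was 14.4, 7, 12.1 and 42 FPKM after FeCl3 and 0, 3.14, 1.37 and 7.98 FPKM after saline. Both were highest in FeCl3 replicate 4 and, of the controls, in saline replicate 4, as were the T cell markers Cd3g and Cd3e, whose part in these values was not tested. Without saline replicate 4 the list's median was 0.91, and Il1b passed (limma adjusted p = 0.0422), as did 1.34% of all tested genes. Tnf itself stayed below the filter, at 0.023 to 0.52 FPKM after FeCl3 and 0 to 0.805 FPKM after saline. Its receptor Tnfrsf1a differed by -0.47 on the log2 scale (limma adjusted p = 0.329), and the receptors that feed the non-canonical pathway, Cd40 and Ltbr, by 0.57 and -0.18 (limma adjusted p = 0.591 and 0.742).

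Adaptors and kinases centred near all genes, with 22 of 22 tested, 6 positive, 16 negative and a median of -0.21. None passed, and 1, Traf6 (named after its values were seen), had an unadjusted p under 0.05, lower after FeCl3. Of all tested genes 12.2% were lower at that level. Without saline replicate 4 the median was -0.20 and 0 passed. The catalytic subunits of the IkB kinase, Ikbkb and Chuk, differed by -0.29 and -0.44 on the log2 scale, and its scaffold Ikbkg by -0.32 (limma adjusted p = 0.604, 0.506 and 0.532). Map3k14, the kinase NIK of the non-canonical pathway, was at 0.25 (limma adjusted p = 0.588). Of the IkB proteins outside the set, Nfkbib was at 0.57 and Nfkbie at 0.25 (limma adjusted p = 0.516 and 0.799), and Nfkbid was below the filter with at most 0.369 FPKM. Without saline replicate 4, the list of Rela, Nfkbib and Nfkbie had a median of 0.50 and 0 passed, with Rela at -0.64.

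Other negative regulators of NF-kB had a median near that of all tested genes. Of 19 listed 18 were in the table and 14 were tested. Of these 5 were positive and 9 negative, with a median of -0.29 beside -0.25 over all tested genes. None passed. At an unadjusted p under 0.05, 5 were lower and 0 higher, where 12.2% and 4.42% of tested genes were. The 5 were Itch, Tollip, N4bp1, Rc3h1 and Zc3h12c, all named after their values were seen. Their values under other scalings are not reported here. The same 5 had groups that did not overlap, 5 of 14 against 8.75% of tested genes lower in this way. Of the regnase family beside Zc3h12a and Zc3h12c, Zc3h12b and Zc3h12d were below the filter, and Rc3h2, the relative of Rc3h1, was at -0.24 with overlapping groups. Without saline replicate 4 the list's median was -0.35 and 0 passed. N4bp1, an inhibitor of signalling to the IkB kinase, had the lowest unadjusted p of the 5: it was 3.93, 2.05, 2.74 and 4.28 FPKM after FeCl3 and 9.25, 8.25, 5.32 and 5.77 FPKM after saline. All FeCl3 values lay below all controls, with a log2 difference of -0.94 ± 0.27 (SE; limma adjusted p = 0.245). Tnip1, a partner of A20, was at 0.33 (limma adjusted p = 0.721), and the deubiquitinase Cyld at -0.33 (limma adjusted p = 0.562).

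None of the NF-kB target genes passed with all 8 libraries, and 3 did without saline replicate 4. Of 30 listed 21 were tested, with 15 positive, 6 negative and a median of 0.20. At an unadjusted p under 0.05 4 were higher and 1 lower, where 4.42% and 12.2% of tested genes were. Groups were apart for 1 in each direction, where 1.06% of tested genes were apart higher and 8.75% lower. The 4 were the chemokines Ccl2 and Ccl5, the cytokine Il1b and the survival gene Bcl2a1, and the lower gene was Cflar, an inhibitor of caspase activation; of these Bcl2a1 was named by rule and the others after their values were seen. Ccl2, a monocyte attractant, was 19.6, 25, 8.26 and 85.1 FPKM after FeCl3 and 0.0423, 4.91, 6.83 and 7.29 FPKM after saline, with no overlap (log2 difference 2.51 ± 0.82, SE; limma adjusted p = 0.251). Bcl2a1, expressed in leukocytes, was 16.9, 18.8, 7.33 and 12.3 FPKM after FeCl3 and 0, 1.71, 1.52 and 9.89 FPKM after saline (log2 difference 2.26 ± 0.66, SE; limma adjusted p = 0.245). Saline replicate 4 alone of the controls reached the FeCl3 range. Ccl5, a T cell chemokine, was 55, 26.6, 40.9 and 15.6 FPKM after FeCl3 and 0.116, 2.46, 2.46 and 37.3 FPKM after saline, where again saline replicate 4 lay within the FeCl3 range. Without that library Ccl5, Bcl2a1 and Il1b passed (limma adjusted p = 0.0243, 0.0307 and 0.0422), as did 4 of the 8 pan-leukocyte markers and 1.34% of all tested genes. The list's median was then 0.34. Saline replicate 4 was set apart by its leukocyte transcripts and was the highest control for Ccl5, Bcl2a1 and Il1b. Their passing is therefore not independent of leaving it out. Il6, below the filter and named after its values were seen, was 2.22, 1.4, 0.223 and 11.6 FPKM after FeCl3 and 0.0637 to 0.34 FPKM after saline. The neutrophil chemokine Cxcl1 ranged from 0.166 to 24.1 FPKM after FeCl3 and from 0.0708 to 3.84 FPKM after saline (limma adjusted p = 0.403). The targets Ier3, Traf1, Tnfaip2 and Sod2 differed by 0.34, 0.63, 0.18 and -0.45 on the log2 scale (limma adjusted p from 0.476 to 0.877).

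**Figure D5:**
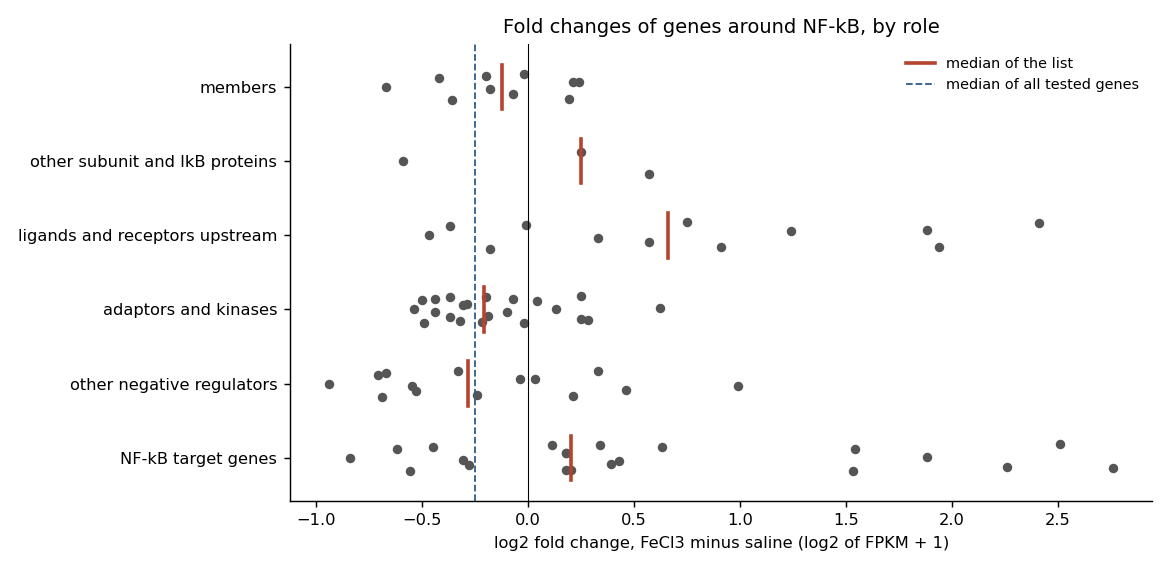
Log2 fold change, FeCl3 minus saline on the log2(FPKM + 1) scale, of every tested gene in 6 lists by role, with the median of each list (red) and of all tested genes (dashed). Ligands and receptors and target genes reach furthest to the right, up to 2.41 and 2.76, while the members lie between -0.67 and 0.24.

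The genes whose pattern over the 8 libraries came closest to each member were found by the root mean square difference of log2(FPKM + 1), each gene centred on its mean. The distance was 0.05 for Nfkb2 with Polr2b, Dgcr8 and Tbc1d23, and 0.07 for Rel with Atad2, Relb with Sdf4 and Zc3h12a with Ppp6r3. For Nfkb1 the nearest was Adgre5 (0.12), for Tnfaip3 B3galt4 (0.14) and for Birc3 Slc35b3 (0.14). Nfkbiz came closest to LOC100359681 (0.22), then to Rhog and the target gene Ier3 (0.23 each). Bcl3 was 0.23 from Slc9a3r2 and Nfkbia 0.28 from Mnat1. These distances are smaller for members that vary little: the members' own spread over the libraries was 0.21 for Nfkb2, 0.43 for Zc3h12a, 0.56 for Nfkbia and 0.88 for Bcl3. No member was among the 3 closest genes of another, and such neighbours describe these 8 libraries only.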

How the data were processed

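Each sample had 1 column of FPKM values, computed by the authors; per the submitters' processing notes fastp, HISAT2, HTSeq and the build mRatBN7.2 were used. Versions, annotation and gene lengths are not given in the sources used here. Per the labels, libraries were made from polyA RNA in 1 batch. FPKM carry library totals and gene lengths, so whole fragments were recovered from their steps (100% of 18090 genes, tolerance 0.02); counts served only for depth and limma voom. The test was limma 3.58.1 with a trend in R 4.3.3 on log2(FPKM + 1), which understates changes of low genes, for genes with at least 1 FPKM in at least 4 of 8 libraries. Alternatives covered the pseudocount, filter, scaling, covariates and each library left out. The members and gene lists were chosen with earlier results of these data known. All members, 20 pathway genes and each member's 3 most alike genes were named by rule; marker genes were named after their values were seen. 1 T and B cell marker is not reported here. Tests were checked on simulated data. Promoter sequences are from RefSeq (GRCr8), a build other than that of the files. Python 3.11.15 and matplotlib 3.10.9 were used.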

Additional observations from a re-analysis of the deposited data

Results flagged for a closer look

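In each group of 4 libraries, a value was marked where its gap to the nearest other library took more of the group's whole range than Dixon's 95% critical value for 4 samples. With normal values, chance marks about 1 in 20 groups, or 2.8 of the 56 groups of 28 genes. The genes share the same libraries, so marks are not independent and their number does not measure an excess. In all, 9 groups were marked. Of these, 5 fell on FeCl3 replicate 4, in which 4 members and 1 other negative regulator stood above the rest of their group. Nfkb1 was 25 FPKM there, against 11.5 to 13 FPKM in the other FeCl3 libraries. Rel was 2.45 FPKM against 1.27 to 1.4 FPKM, Tnfaip3 8.69 FPKM against 2.36 to 3.43 FPKM and Birc3 3.6 FPKM against 1.16 to 1.57 FPKM. Cyld, a deubiquitinase, was 7.04 FPKM against 3.58 to 3.88 FPKM. In saline replicate 1, Nfkbiz was 9.47 FPKM against 4.39 to 5.1 FPKM in the other controls.

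The remaining 3 fell on saline replicate 2, in which Ucp1, a brown fat gene, was 6272 FPKM against at most 76.5 FPKM in the other libraries. Chuk, a catalytic subunit of the IkB kinase, was 26.2 FPKM there against 8.62 to 11.1 FPKM in the other controls. Its scaffold Ikbkg was 2.24 FPKM against 1.19 to 1.35 FPKM, and Sod2, the mitochondrial superoxide dismutase, was 274 FPKM against 74.2 to 86.7 FPKM.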

How the results depend on the processing

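With 4 samples a group and wide spread, a p above the threshold does not show that a member was alike in both groups. The count of 0 genes past the threshold ran from 0 to 160 (150 higher, 10 lower) with each library left out, the 160 without saline replicate 4. It was 2880 with FPKM rescaled to TPM (49 higher, 2831 lower), and in fits chosen after seeing the data 51 without saline replicates 1 and 4 and 261 with median-of-ratios scaling without saline replicate 4. Nfkb1, Nfkb2 and Zc3h12a were negative in all 19 alternatives. Other members changed sign, never past the threshold. With median-of-ratios scaling Relb was 0.10, Nfkbia 0.20 and Bcl3 0.03. With haemoglobin genes left out of the totals these were 0.16, 0.29 and 0.04. With TPM, Nfkbiz was -0.42, Tnfaip3 -0.40 and Birc3 -0.29. With a pan-leukocyte covariate Nfkbia was 0.34, Tnfaip3 -0.28 and Birc3 -0.20, and with a haemoglobin covariate Nfkbia was 0.80. Bcl3 was 0.10 with a pseudocount of 0.1 and 0.39 with limma voom. With median-of-ratios scaling without saline replicate 4, Rel was 0.01, Relb 0.13, Nfkbia 0.04 and Bcl3 0.14. With each library left out, the log2 fold change ran from -0.67 to -0.31 for Nfkb1, -0.45 to -0.32 for Nfkb2, -0.34 to -0.11 for Rel, -0.19 to 0.03 for Relb, -0.28 to 0.38 for Nfkbia, 0.01 to 0.46 for Nfkbiz, -0.72 to 0.40 for Bcl3, -0.12 to 0.39 for Tnfaip3, -0.05 to 0.31 for Birc3 and -0.83 to -0.58 for Zc3h12a. Relative to Rela, the difference ran from -0.02 to 0.38 for Nfkb1, -0.22 to 1.08 for Bcl3 and -0.19 to 0.09 for Zc3h12a (0.07 without FeCl3 replicate 1), and the other 7 members stayed positive. The causes of these shifts were not tested. No paired analysis was possible because the sample titles share only 1 number between the groups, and the replicate numbers used here follow accession order and pair no samples.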
